A study of Arabidopsis thaliana with 30 samples.

Results

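The transcript of WRKY40 (locus AT1G80840), a transcription factor gene of Arabidopsis thaliana, was followed with its probe set ATH1.261892_at, written as the array's name and then the probe set's identifier, which is 1 of 22810 probe sets on the Affymetrix ATH1 array. The probe set was set by its identifier, with earlier results of these data known, and the platform annotation used here leaves it unnamed. It was among the 15922 probe sets bright enough to be tested. Total RNA came from leaves of 21-day-old soil-grown plants of 5 genotypes, labelled Col0 (the wild type, Col-0), Atwrky40 KO and Atwrky63 KO (knockouts), and Atwrky40.4 OE and Atwrky63.3 OE (overexpressors). Each genotype was sampled untreated and after 1 h under high light of 1000 µE (per square metre and second), with 3 arrays in each of the 10 groups. Each knockout and each overexpressor is a single line. The position of the knockout insertions, and the promoter and the transcribed part of the transgenes, are not given by the labels. Nothing in the labels ties a replicate to its own plant or harvest, so the p-values rest on a spread among arrays that may be technical only. WRKY63 is the name in the sample labels, although the design text has WRKY60.

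WRKY proteins are plant transcription factors that bind W-box elements in promoters. WRKY40 acts with its close relatives WRKY18 and WRKY60 and is known mainly as a repressor, in abscisic acid signalling and in basal defence. It is also known as a rapidly induced stress transcript and as a regulator of genes for mitochondrial and chloroplast proteins. WRKY63 belongs to another branch of the family and has been studied in drought and abscisic acid responses.

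The deposited signals were scaled by the authors to a common mean, and the median signal of an array ran from 168.0 to 186.4 without treatment and from 147.7 to 164.2 after high light. Leaf markers were high on all 30 arrays, with rubisco activase (RCA) between 23461 and 38076, and the root markers PYK10 and AT5G48430 reached at most 807 and 77.3. Their part in the results was not tested. Actin 3′ signal over 5′ signal, a measure of RNA integrity, was at a median log2 of 1.65 and stood high on 2 arrays, replicate 2 of untreated Col-0 (2.35) and replicate 3 of the light-treated WRKY63 overexpressor (2.32). A second actin pair, at a median log2 of 4.05, stood high on 3 arrays. These were WRKY40 knockout untreated replicate 1 (4.67), Col-0 high light replicate 3 (5.06) and WRKY63 overexpressor high light replicate 3 (5.39). Each WRKY40 difference called below was also called without the arrays high in the first pair, and without those high in the second.

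The WRKY40 probe set gave a middling signal in untreated Col-0 leaves and one of the brighter signals after high light. Untreated Col-0 gave signals of 87.8, 176 and 382, and high light gave 791, 1735 and 1484, so the groups did not overlap. The overexpressor stood above all other groups in both lights, with 4972, 11982 and 10960 untreated and 5932, 10311 and 9843 after high light. In the WRKY40 knockout the untreated signals were 143, 141 and 163, inside the range of untreated Col-0. After high light the knockout gave 233, 398 and 319, all below every high light array of Col-0.

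The WRKY63 knockout gave 66.0, 80.3 and 272 untreated and 1688, 1086 and 1965 after high light. The WRKY63 overexpressor gave 249, 274 and 209 untreated and 2420, 2994 and 2243 after high light. In both WRKY63 lines the high light arrays all lay above the untreated ones. Such separation is common with so few arrays: in the WRKY40 knockout 17.6% of all probe sets showed it in this direction. Its share is not given here for Col-0, the WRKY63 lines or the WRKY40 knockout against Col-0. Non-overlap there is a description only. Those differences rest on the limma tests below. Placed on each array's own scale, WRKY40 was brighter than 38.7 to 66.4% of probe sets in untreated Col-0, than 82.3 to 91.2% in Col-0 after high light and than 97.2 to 99.4% in the untreated overexpressor. The brightest probe set of any array was at least 31302, above the overexpressor's WRKY40 signals. Whether the WRKY40 probes themselves were near saturation was not tested.

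**Figure D1:**
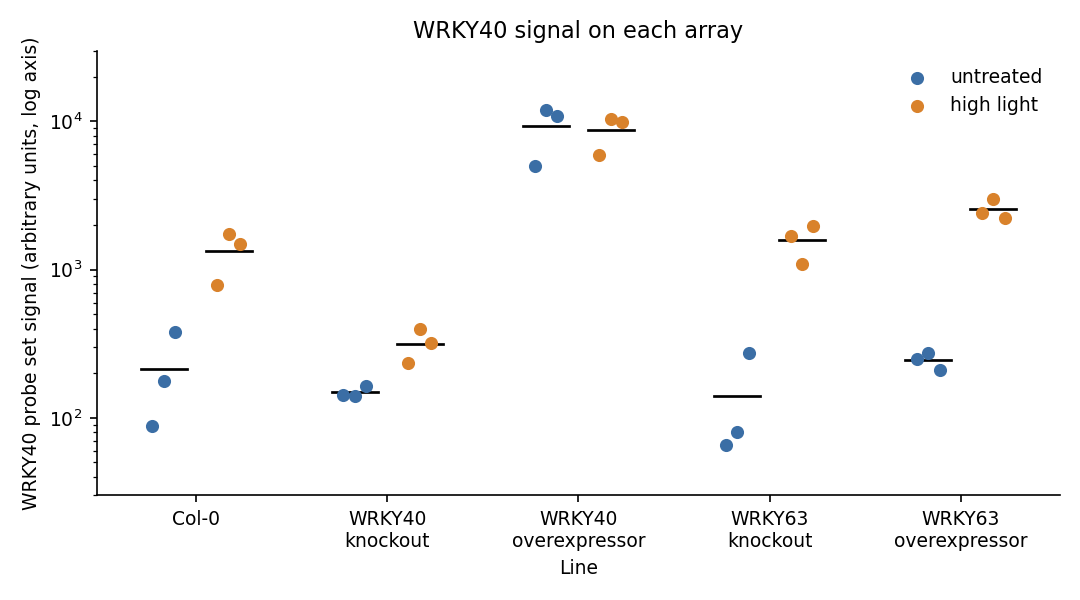
Signal of the WRKY40 probe set on each of the 30 arrays, in arbitrary units on a log axis, for the 5 genotypes untreated (blue) and after high light (orange). Points are arrays and bars are group means. The overexpressor stands between 4972 and 11982 in both lights, Col-0 and both WRKY63 lines rise with high light, and the WRKY40 knockout stays at or below 398.

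By group mean the order of levels ran from the WRKY40 overexpressor, untreated (9305 ± 3787, SD, n = 3) and then after high light (8696 ± 2405), through the high light arrays of the WRKY63 overexpressor (2552 ± 392), the WRKY63 knockout (1580 ± 449) and Col-0 (1337 ± 489). The WRKY40 knockout after high light followed (316 ± 82.4), and then the untreated groups: the WRKY63 overexpressor (244 ± 32.6), Col-0 (215 ± 151), the WRKY40 knockout (149 ± 11.9) and the WRKY63 knockout (139 ± 115). Only 2 of the 9 steps between neighbours in this order passed limma's test at a Benjamini-Hochberg adjusted p of 0.05, the threshold used throughout. These were the WRKY40 overexpressor over the WRKY63 overexpressor after high light (log2 difference 1.74 ± 0.45, SE, adjusted p = 0.00937) and Col-0 over the WRKY40 knockout after high light (2.03 ± 0.45, adjusted p = 0.00231). The other neighbours did not differ beyond their spread, and in 6 of those 7 steps their arrays overlapped. The WRKY63 overexpressor and the WRKY63 knockout after high light did not overlap, but their log2 difference of 0.72 ± 0.45 was not called (adjusted p = 0.313).

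The overexpressor's transcript exceeded that of Col-0 by more than any other tested probe set in untreated leaves. Its mean signal was 43.2 times that of Col-0, a log2 difference of 5.58 ± 0.45 (95% interval 4.64 to 6.51, limma adjusted p = 1.84e-08). This ranked 1 of 15922 from the highest, in a comparison that called 2.45% of probe sets. After high light the mean was 6.50 times that of Col-0 (log2 2.73, 95% interval 1.80 to 3.67, adjusted p = 7.76e-04), rank 17 from the highest, with 2.44% of probe sets called. The smaller ratio in high light went with a higher Col-0 level, and the overexpressor's own light change of -0.04 on the log2 scale was not called.

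In the knockout the probe set still gave a signal, and only the high light arrays set it apart from Col-0. Untreated, the log2 difference from Col-0 was -0.28 ± 0.45 (95% interval -1.21 to 0.65, adjusted p = 0.757), in a comparison that called 14.3% of probe sets. After high light the mean was 23.7% of that in Col-0, a log2 difference of -2.03 (95% interval -2.97 to -1.10, adjusted p = 0.00231), with 15.2% of probe sets called. Where the probes lie relative to the insertion is not known here, so the signal left in the knockout shows neither an intact nor a truncated transcript. Without detection calls, the untreated signals of the knockout and of Col-0 could not be set against background either. In whole leaves, a lower level in each cell and fewer cells holding the transcript cannot be told apart. Without Col-0 untreated replicate 3, the brightest of its group, the untreated difference became 0.26 (adjusted p = 0.789).

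Set directly against each other, the WRKY40 overexpressor exceeded the WRKY40 knockout 62.4-fold untreated (log2 5.86, adjusted p = 4.37e-10) and 27.5-fold after high light (log2 4.77, adjusted p = 1.57e-08). These comparisons called 16.1% and 18.5% of probe sets, and WRKY40 ranked 8 and 17 from the highest.

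Genes next to WRKY40 on the chromosome were looked at for the same pattern. Of the 3 nearest genes with a named probe set on each side, 5 of 6 could be tested. In limma's test none was called against Col-0 in the overexpressor in either light, where 2.45% and 2.44% of all probe sets were. At an unadjusted p under 0.05 there were 2 of the 5 untreated and 0 after high light. In the untreated knockout 1 of 5 was higher and 1 of 5 lower, against 6.86% and 7.40% of all probe sets. After high light none was called in the knockout, against 15.2% of all probe sets (1 of 5 at an unadjusted p under 0.05). CCR2, which encodes a cinnamoyl-CoA reductase of phenolic synthesis, gave 4.34, 27.5 and 5.49 in the untreated knockout and 46.4, 43.1 and 33.9 in untreated Col-0 (log2 -2.07 ± 0.52, adjusted p = 0.00725). These are dim signals, where the log2 difference depends on the pseudocount, and the call ended without knockout untreated replicate 1 (-1.62, adjusted p = 0.0662). AT1G80870 was higher, with a log2 difference of 0.76 ± 0.20 (adjusted p = 0.00931), a call that ended without Col-0 untreated replicate 1 (0.64) or knockout untreated replicate 3 (0.59). CCR2 rose with high light in the knockout by 3.98 ± 0.52, against 1.05 for WRKY40 there.

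High light raised WRKY40 in the 3 genotypes whose WRKY40 gene is not altered. In Col-0 the mean rose 6.21-fold, a log2 change of 2.80 ± 0.45 (95% interval 1.87 to 3.73, adjusted p = 1.6e-05). High light called 43.9% of probe sets in Col-0, 14.9% as higher, and the median log2 change over all tested probe sets was -0.18. In the WRKY63 knockout the mean rose 11.3-fold (log2 3.75, 95% interval 2.82 to 4.68, adjusted p = 2.05e-07), with 46.5% of probe sets called. In the WRKY63 overexpressor it rose 10.5-fold (log2 3.38, 95% interval 2.45 to 4.31, adjusted p = 8.72e-07), with 51.2% called.

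In neither WRKY40 line was the light change of the probe set called, though that of the knockout lay above the change of 92.6% of tested probe sets. The knockout's arrays did not overlap between the lights, as those of 17.6% of all probe sets did not in this direction, and the mean after high light was 2.12 times the untreated mean. The log2 difference of 1.05 ± 0.45 (95% interval 0.12 to 1.98) did not pass the test (adjusted p = 0.0632), in a comparison that called 43.3% of probe sets. It did pass with quantile normalization (1.25, adjusted p = 0.0272) and with only the knockout's own arrays in the fit (1.05, adjusted p = 0.00338). In the overexpressor the arrays of the 2 lights overlapped and the log2 difference was -0.04 (95% interval -0.97 to 0.89, adjusted p = 0.957), with 40.9% of probe sets called. Its sign changed without overexpressor high light replicate 1 (0.22) or untreated replicate 2 (0.19) or 3 (0.13).

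The differences in light response between lines were tested as interactions. The response of the overexpressor was lower than that of Col-0 by a log2 of -2.84 ± 0.64 (95% interval -4.16 to -1.52). Its limma adjusted p of 0.0521 missed the threshold, in a comparison that called 0.220% of probe sets. It passed without Col-0 untreated replicate 3 (-3.38, adjusted p = 0.0185), without overexpressor untreated replicate 1 (-3.24, adjusted p = 0.0276) and with a pseudocount of 16 (-2.73, adjusted p = 0.0431), and over all alternatives the adjusted p ran from 0.0185 to 0.204. The knockout's response was lower by -1.75 ± 0.64 (95% interval -3.07 to -0.43), not called at an adjusted p of 0.249, with 1.03% of probe sets called. The responses of the WRKY63 knockout (0.95, adjusted p = 0.679) and the WRKY63 overexpressor (0.58, adjusted p = 0.765) were not called either, in comparisons that called 0.113% and 0.415% of probe sets. Their 95% intervals of -0.37 to 2.26 and -0.74 to 1.89 leave room for responses up to several-fold stronger than in Col-0.

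**Figure D2:**
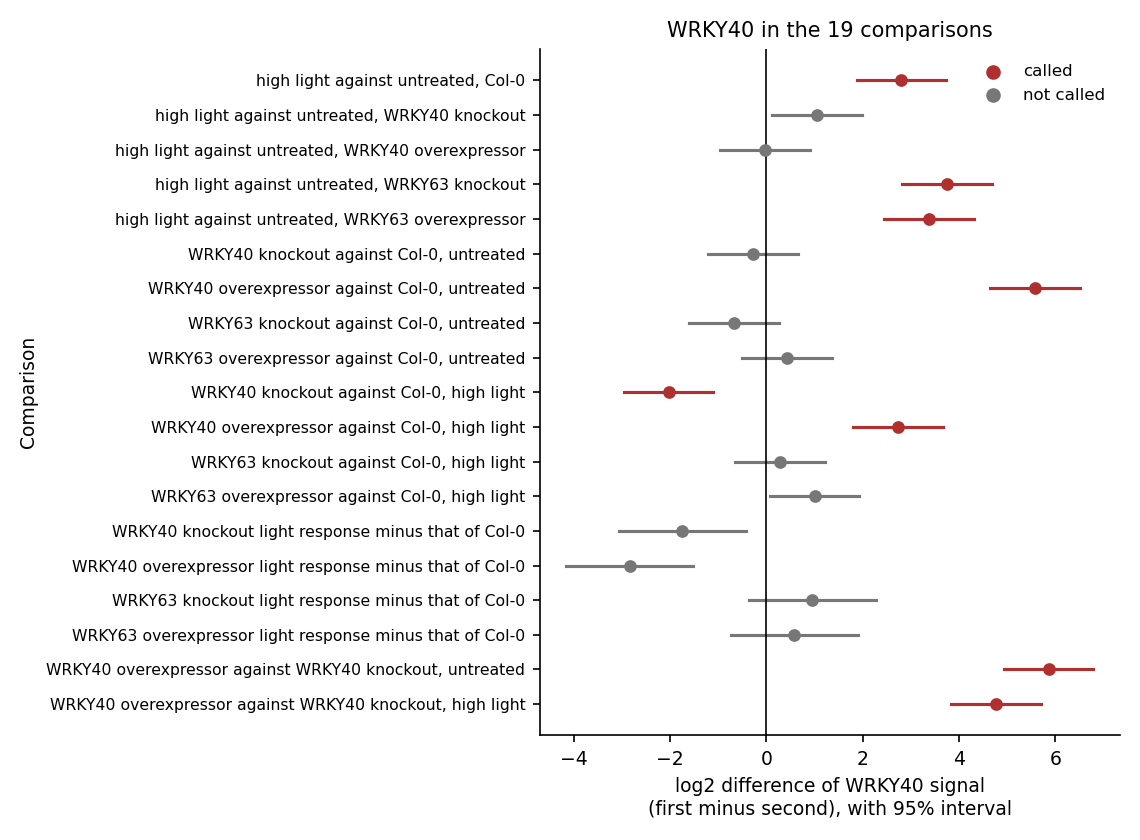
Log2 difference of the WRKY40 probe set in each of the 19 comparisons, with 95% intervals from limma; red points were called at an adjusted p of 0.05 and grey points were not. The overexpressor stands 5.58 above untreated Col-0, the knockout stands 2.03 below Col-0 after high light, and none of the interactions was called.

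Altered WRKY63 was set against Col-0 in each light. WRKY40 in the WRKY63 knockout differed from Col-0 by -0.67 ± 0.45 untreated (adjusted p = 0.608) and by 0.27 ± 0.45 after high light (adjusted p = 0.941), with overlapping arrays in both lights. These comparisons called 0.502% and 0.0251% of probe sets. In the WRKY63 overexpressor the untreated difference was 0.42 ± 0.45 (adjusted p = 0.713), with 4.26% of probe sets called. After high light the 3 arrays of this line, at 2243 to 2994, lay above all 3 of Col-0, as did 11.0% of all probe sets. The log2 difference of 1.00 (95% interval 0.07 to 1.93) had an adjusted p of 0.169 and was not called, against 10.2% called over all probe sets.

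WRKY40 varied more between replicates than most probe sets. Its pooled SD within groups was 0.62 on the log2 scale, above that of 93.1% of tested probe sets and of 97.5% of the 1000 nearest to it in mean signal. The spread was uneven: the highest array was 4.35 times the lowest in untreated Col-0 and 4.12 times in the untreated WRKY63 knockout, but 1.15 times in the untreated WRKY40 knockout and 1.31 times in the untreated WRKY63 overexpressor. In both wide groups replicate 3 was the high one.

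The genes most like WRKY40 were found by Pearson's r of log2 signals over the 18 arrays of Col-0 and the WRKY63 lines, among 8768 tested probe sets that name 1 gene. These arrays separate into untreated and high light sets, so a high r is in large part a shared light response, and no p is given. The 10 highest were AT3G57450 (r = 0.981), the VQ motif protein AT3G56880 (0.971), the glycine-rich protein AT3G04640 (0.969), AT1G76600 (0.968), AT1G23710 (0.968), the TIR domain protein AT2G32140 (0.963), the calmodulin-like calcium sensor CML38 (0.961), the C2 domain protein AT4G34150 (0.959), the glycine-rich protein AT1G07135 (0.957) and AT4G29780 (0.957). The 5 lowest were AT1G09010 (-0.956), DRT100 (-0.955), AT3G55420 (-0.952), AT1G53290 (-0.951) and the LIM domain protein WLIM2a (-0.949), which binds actin. Over all 30 arrays, with the altered WRKY40 lines, r of the 10 highest was 0.256 to 0.667. Which genes are named rests in part on single arrays: 8 of the 15 were named again without Col-0 untreated replicate 3, 9 without Col-0 untreated replicate 1 and 10 to 13 without any other single array. With Spearman's rho 6 of the 15 were named again, and with all 30 arrays none was.

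Deviations of single arrays from their group means entered the choice of these genes, so their r with WRKY40 is a description only. With each group's mean removed it was 0.682 to 0.954 over the same 18 arrays for the 10 highest genes, and AT1G76600, described here because it had the highest, was picked after its value was seen. AT1G76600 gave 303, 519 and 1151 in untreated Col-0 and 234, 252 and 664 in the untreated WRKY63 knockout, so its replicates 3 were high where those of WRKY40 were. Over the 6 arrays of the WRKY40 knockout, which entered the signal filter but not the choice by r, the corresponding r was 0.0244 to 0.929. That of AT1G76600 was 0.350. Arrays of 1 group share a treatment and possibly a harvest, and the part of either was not tested.

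**Figure D3:**
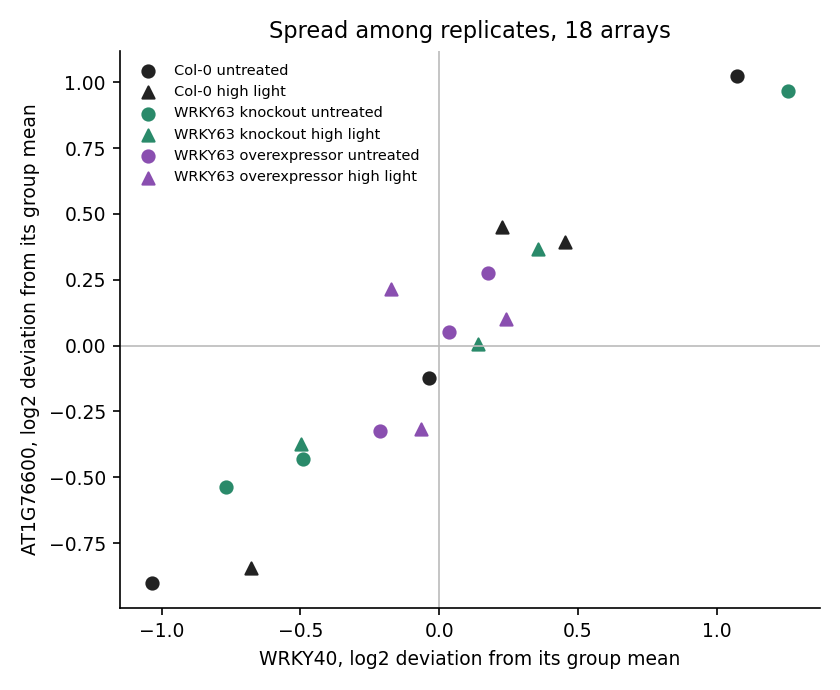
Log2 deviation from the group mean of AT1G76600 against that of WRKY40 on the 18 arrays of Col-0 and the WRKY63 lines, circles untreated and triangles high light. The points run along a diagonal (r = 0.954, n = 18, on arrays that also chose the gene), with the untreated replicates 3 of Col-0 and of the WRKY63 knockout at the upper right.

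The genes most like WRKY40 rose with high light in both WRKY40 lines, whose arrays the choice of genes did not use. In the WRKY40 knockout 10 of 10 rose, by log2 1.43 to 5.0 (median 2.91), each by more than the 1.05 of WRKY40 itself, where 14.3% of all probe sets were called higher. In the overexpressor 9 of 10 rose (14.2% of all probe sets were called higher) and the median over the 10 was 2.15. The exception was AT3G56880, at 0.75 (adjusted p = 0.0637), which was called without overexpressor high light replicate 1 (1.29). The genes were chosen for a light response under the same treatment in other lines, so these counts are not independent of light. In Col-0, which the choice used, their changes were 0.80 to 3.37 (median 1.92), against 2.80 for WRKY40. None of the 10 was called by limma in the interaction of either WRKY40 line (0 at an unadjusted p under 0.05). Values were 0.25 to 1.64 in the knockout and -0.19 to 1.42 in the overexpressor, where 1.03% and 0.220% of all probe sets were called.

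**Figure D4:**
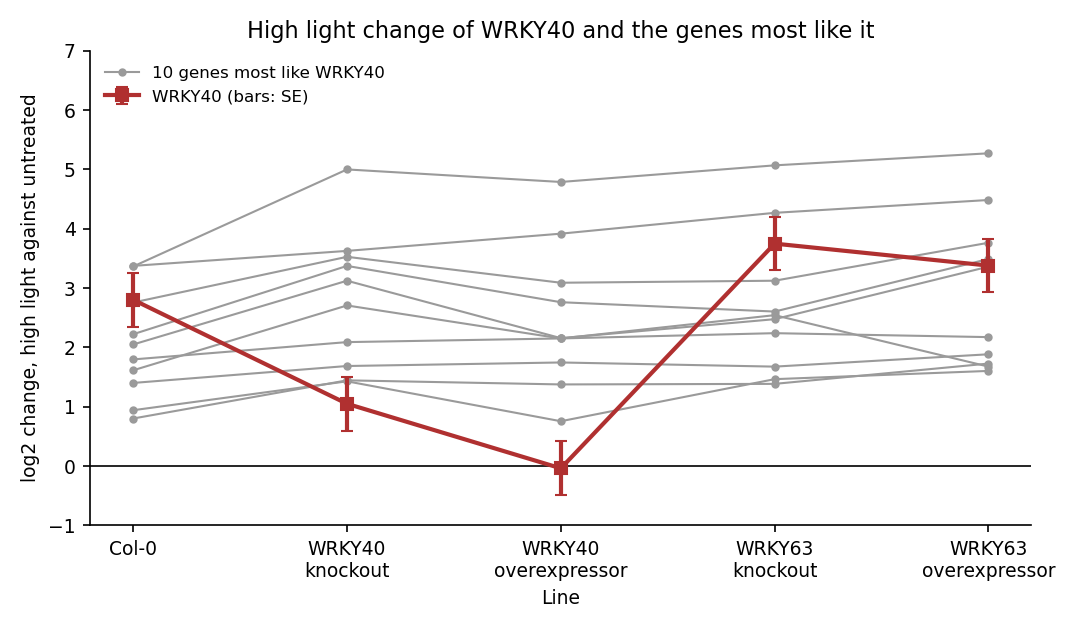
Log2 change with high light in each genotype for WRKY40 (red squares, bars are SE) and the 10 genes most like it (grey). WRKY40 lies among them in Col-0 and both WRKY63 lines and below all 10 in the WRKY40 knockout (1.05) and overexpressor (-0.04).

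The 5 genes of lowest r fell with high light in every genotype, where 29.0% (Col-0), 29.0% (WRKY40 knockout), 26.7% (WRKY40 overexpressor), 32.3% (WRKY63 knockout) and 35.3% (WRKY63 overexpressor) of all probe sets were called lower. Against Col-0, limma called 1 of these 5 genes in the untreated knockout and 1 after high light, where 14.3% and 15.2% of all probe sets were called. None was called in the overexpressor, against 2.45% and 2.44% of all probe sets (1 of 5 at an unadjusted p under 0.05 untreated and 0 after high light). AT1G53290 was higher in the untreated knockout by 0.57, a call that ended without Col-0 untreated replicate 3 (0.46) or knockout untreated replicate 1 (0.32). DRT100, a leucine-rich repeat protein, was higher in the knockout after high light by 1.41. None of the 10 genes of highest r was called against Col-0 by limma in the untreated knockout, where 14.3% of all probe sets were called. Their log2 differences were -1.31 to 0.80 (2 of 10 at an unadjusted p under 0.05).

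A single array of the WRKY40 overexpressor stood low for some of the genes of highest r, with examples given here. After high light its replicate 1 gave 368 for AT1G76600, against 2662 and 2552 in the other replicates, 491 for CML38 against 1905 and 1778, and 2371 for AT3G57450 against 7489 and 7677. The drop was not alike in all genes of highest r, and AT2G32140 gave 304 on that array against 373 and 359. The signal of WRKY40 on that array was 5932 against 10311 and 9843.

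Few relatives of WRKY40 could be followed. Of 71 listed WRKY genes 7 had a named probe set and 6 were tested, and the annotation names no probe set for WRKY18, WRKY60 or WRKY63. In Col-0 after high light none of the 6 was called higher, where 14.9% of all probe sets were. WRKY47 fell by 1.19 on the log2 scale, where 29.0% of all probe sets were called lower. That call ended without Col-0 high light replicate 2 (-0.96) or 3 (-0.99). In the WRKY40 knockout after high light WRKY53, a regulator of leaf senescence, stood at 672 ± 313 against 247 ± 64.1 in Col-0 (log2 1.37 ± 0.42, adjusted p = 0.0255), 1 of 6 called higher against 7.38% of all probe sets. That call ended without Col-0 high light replicate 1 (1.17) or 2 (1.38), or without knockout high light replicate 2 (1.02) or 3 (1.37). In the untreated overexpressor WRKY6 was lower, with signals averaging 19.8 against 68.2 (log2 -2.05 ± 0.52, adjusted p = 0.0298), 1 of 6 called lower against 1.82% of all probe sets. That call ended with a pseudocount of 16 (-1.33) and without Col-0 untreated replicate 2 (-1.86) or 3 (-2.09), or overexpressor untreated replicate 2 (-1.71) or 3 (-1.72). The other tested WRKY genes gave no call between a WRKY40 line and Col-0 in either light. Of all probe sets, 14.3% untreated and 15.2% after high light were called in the knockout, and 2.45% and 2.44% in the overexpressor. With so few genes this is no result about the family.

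Rapid stress and touch genes were mixed in their light response. Of 44 listed, 8 were tested, and in Col-0 4 rose, 1 fell and 3 were not called, where 14.9% of all probe sets were called higher and 29.0% lower. Their median change was 1.01 against -0.18 over all probe sets, and with the filter at the 50th percentile 2 members were called in place of 5. STZ, a zinc finger repressor, rose by 3.59 ± 1.04 (adjusted p = 0.00665) and CML38 by 3.36 ± 0.57. The ubiquitin ligase gene PUB22 rose by 2.14, a call that ended without Col-0 high light replicate 2 (1.92) or 3 (2.08) or Col-0 untreated replicate 1 (1.26), and PUB24 fell by 1.01. In the WRKY40 knockout 5 rose and none fell (median 1.67), where 14.3% of all probe sets were called higher and 29.0% lower. In the overexpressor 5 rose and 1 fell (median 1.45), where 14.2% were called higher and 26.7% lower. Against Col-0, WRKY53 and WRKY6, given above, were the only members called in a WRKY40 line. Of all probe sets, 14.3% untreated and 15.2% after high light were called in the knockout, and 2.45% and 2.44% in the overexpressor.

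Genes of hormone and mitochondrial responses, in which WRKY40 is known to act, were thinly represented. None of the 18 jasmonate genes listed had a named probe set. Of 18 abscisic acid genes 2 were tested, and in the untreated knockout the dehydrin COR47 was higher by 0.96 ± 0.20 and the chloroplast cold-response protein COR15A lower (log2 -2.03 ± 0.41), where 6.86% of all probe sets were called higher and 7.40% lower. COR15A was also lower in the knockout after high light (-2.56 ± 0.41, adjusted p = 5.7e-05), where 7.86% were called lower, and neither gene was called in the overexpressor (0 at an unadjusted p under 0.05 in either light). Of 12 salicylate genes 2 were tested and neither was called by limma in a WRKY40 line against Col-0. Of all probe sets, 14.3% untreated and 15.2% after high light were called in the knockout, and 2.45% and 2.44% in the overexpressor. In the knockout after high light 1 salicylate gene was called with only the arrays compared, and 1 without the arrays of high actin ratio. At an unadjusted p under 0.05 there were 0 salicylate genes untreated and 2 after high light in the knockout, and 1 in each light in the overexpressor. Of 9 mitochondrial stress genes 4 were tested. In the untreated knockout 0 were called against Col-0 (0 to 1 over the alternatives), where 14.3% of all probe sets were. At an unadjusted p under 0.05 there was 1. In the knockout 3 were higher than in Col-0 after high light, where 7.38% of all probe sets were. Over the alternatives this count was 2 to 3, and the call of AT2G21640 ended without Col-0 high light replicate 1 (0.91). All 4 rose with high light in Col-0 and in the knockout, where 14.9% and 14.3% of all probe sets were called higher. None was called in the overexpressor against Col-0, where 2.45% of all probe sets were called untreated and 2.44% after high light (1 at an unadjusted p under 0.05 untreated and 0 after high light).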

How the data were processed

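Leaf RNA of 30 arrays was measured, and groups and replicate numbers came from the sample titles. The deposited values are 1 linear signal intensity per probe set, which the authors computed with MAS5, per the submitters' processing notes (version not given in the sources used here), and no detection calls were used. After the lowest and highest 2% were left out, every array had a mean intensity between 500.05 and 500.06, so low signals and array-wide shifts are bounded by that scaling. No arrays were identical, and log2 signals correlated at 0.922 to 0.966 within groups.

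Of 22810 probe sets, 64 controls were left out. From the deposited intensity, log2(signal + 1) was taken, which understates changes of dim probe sets. The 15922 probe sets with a mean not below the 30th percentile, or a signal of 46.7, were fitted with limma 3.58.1 in R 4.3.3, with a mean for each of 10 groups over all 30 arrays and a variance trend. Adjusted p-values are over all tested probe sets within each of 19 comparisons. With 3 against 3 arrays an exact permutation test cannot go below 0.1, so none was used. Of the probe sets other than controls, the platform annotation gives 1 gene to 13513, several to 503 and none to 8730. The TAIR10.1 gene table gave only names and neighbours.

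The genes named are the 10 highest and 5 lowest in r, the 3 nearest genes on each side, and called members of the gene lists, up to 3 each way. WRKY40 and the lists were chosen with earlier results of these data known. Alternatives covered scaling, pseudocount, filter, arrays fitted, variance model, replicate block and each array left out. The steps were tested on simulated data.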

Additional observations from a re-analysis of the deposited data

How the results depend on the processing

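Each of the 8 differences called for WRKY40 kept its direction and its call under all alternatives. Leaving out 1 array at a time gave ranges of 2.28 to 3.34 for high light in Col-0, 3.36 to 4.38 in the WRKY63 knockout and 3.26 to 3.47 in the WRKY63 overexpressor. They were -2.37 to -1.81 for the WRKY40 knockout against Col-0 after high light, 5.06 to 6.11 and 2.39 to 2.99 for the WRKY40 overexpressor against Col-0 untreated and after high light, and 5.62 to 6.26 and 4.56 to 5.02 for it against the knockout. Differences not called were less steady. High light in the WRKY40 knockout was called on only the arrays compared (1.05), with quantile normalization (1.25) and with the replicate block (1.05, adjusted p = 0.0259), and ran from 0.87 to 1.25 with 1 array left out. High light in the overexpressor ran from -0.44 to 0.22, the knockout against untreated Col-0 from -0.80 to 0.26, the WRKY63 knockout against Col-0 after high light from -0.0662 to 0.52 and the WRKY63 overexpressor against untreated Col-0 from -0.10 to 0.96. The overexpressor's interaction was called with a pseudocount of 16 (-2.73) and with the replicate block (-2.84, adjusted p = 0.0235), and ran from -3.38 to -2.32 with 1 array left out; the cause was not tested. By the rule used, that all 3 correlations of same-numbered arrays be over 0.1, no comparison was treated as paired. That rule cannot show pairing to be absent, since some correlations were over 0.1. Between lines in high light the correlations were all positive, at 0.00729 to 0.319. The block changed no other call of WRKY40. Leaving out the arrays of high actin ratio, by either of 2 actin pairs, was chosen after seeing the data, as was leaving out single arrays in the likeness of genes.

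Counts of called probe sets moved by over 1.5 times under some alternative in the comparisons given here. Against Col-0, the count and its range over alternatives were 2271 (1373 to 2463) for the untreated WRKY40 knockout, 390 (218 to 428) for the untreated WRKY40 overexpressor and 388 (131 to 541) for it after high light. They were 80 (4 to 111) and 4 (1 to 10) for the WRKY63 knockout untreated and after high light, and 678 (308 to 743) and 1621 (439 to 1726) for the WRKY63 overexpressor. For the interactions they were 164 (97 to 194) in the WRKY40 knockout, 35 (0 to 64) in the WRKY40 overexpressor, 18 (1 to 18) in the WRKY63 knockout and 66 (9 to 158) in the WRKY63 overexpressor. With 3 arrays a group and no detection calls, the WRKY40 levels of untreated leaves could not be set against background.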
